A study of Mus musculus with 9 samples.

Results

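Small nucleolar RNAs (snoRNAs) were followed in fetal liver erythroblasts of mice that lack 1 or both functional copies of the adult beta-globin genes. A gene was taken when a probe set listed for it alone carried a symbol of the Snord or Snora type, and where a gene had more than 1 such probe set the brightest over all arrays was used. This gave 51 snoRNA genes, 31 of the C/D box class (Snord) and 20 of the H/ACA box class (Snora), from 56 probe sets, out of 19938 genes with a probe set of their own. The choice used names, not changes between genotypes.

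Gene expression was measured with 1 oligonucleotide array per sample in 9 samples, 3 from Th3/Th3, 3 from Th3/+ and 3 from wild type embryos (E14.5). Th3 is a beta-thalassemia allele that removes the adult beta-globin genes; it came from a 129SV background and had been crossed back to C57BL/6 for 9 generations. Th3/Th3 embryos carry this allele on both chromosomes and Th3/+ embryos on 1, and all livers came from Th3/+ intercrosses. The cells were sorted for CD71 (the transferrin receptor), Ter119 (a red cell surface marker) and high forward scatter, that is, as large erythroblasts. The sample titles call the samples biological replicates. Whether each stands for 1 embryo or several pooled ones is not stated, so the p-values measure the spread between these samples and not necessarily between single embryos.

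SnoRNAs guide chemical modification of ribosomal and other RNAs in the nucleolus. C/D box snoRNAs bind fibrillarin, Nop56, Nop58 and Snu13 and direct methylation of the ribose, and H/ACA box snoRNAs bind dyskerin, Gar1, Nhp2 and Nop10 and direct the change of uridine to pseudouridine; a few members of either class act in cleavage of the ribosomal RNA precursor instead. In mammals most are cut out of introns of longer host genes, many of which encode ribosomal proteins, translation factors or chaperones, or are non-coding RNAs kept mainly for their introns.

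By position in the RefSeq gene table of build GRCm38.p6, 49 of the 51 genes lay inside a gene longer than 1000 bases, and 2 (Snord104 and Snord118) did not. Shorter genes were not considered as hosts. There were 40 distinct hosts, 31 protein-coding and 9 long non-coding. Ribosomal protein genes were 16 of these hosts and held 21 of the snoRNA genes. The table gives no strand for snoRNAs, so a host here is a gene that spans the snoRNA, whichever strand is read. Host promoters of this kind often start in a run of pyrimidines (C or T), a feature known from ribosomal protein genes. The 300-base windows from 250 bases before the start to 50 after are shown for the hosts of 2 snoRNA genes described below, Snora20 (host Tcp1, chr17:12916079-12916378) and Snord49a (host 2410006H16Rik, chr11:62602627-62602926), both on the plus strand and from RefSeq (GRCm38.p6), with the pyrimidine run nearest the start in capitals.
Tcp1: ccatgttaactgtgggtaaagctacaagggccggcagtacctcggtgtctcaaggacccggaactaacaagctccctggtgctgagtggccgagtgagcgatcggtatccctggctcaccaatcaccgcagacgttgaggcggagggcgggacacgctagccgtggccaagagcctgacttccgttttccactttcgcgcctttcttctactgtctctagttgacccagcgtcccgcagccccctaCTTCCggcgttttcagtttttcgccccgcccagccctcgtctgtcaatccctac
2410006H16Rik: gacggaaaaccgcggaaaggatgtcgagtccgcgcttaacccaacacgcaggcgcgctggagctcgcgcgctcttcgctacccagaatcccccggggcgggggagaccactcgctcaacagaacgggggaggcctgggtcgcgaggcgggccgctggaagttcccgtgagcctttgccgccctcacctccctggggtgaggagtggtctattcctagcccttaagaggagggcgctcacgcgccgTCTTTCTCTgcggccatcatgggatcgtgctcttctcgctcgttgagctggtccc
The run was 5 bases long in Tcp1, at -4 to 1 where 1 is the first transcribed base, and 9 bases long in 2410006H16Rik, at -5 to 4. A run of at least 8 C or T bases within 5 bases of the start, read on the gene's own strand, was found in 9 of the 30 host genes with a window (30.0%), against 11.0% of all 27025 genes with one. One stretch of a snoRNA itself could be printed, because RefSeq lists a microRNA, mmu-miR-5121, over the same bases at one end of Snord33 (chr7:45126925-45126945, minus strand). Its capitals mark UGAUGA, the core of the C box that C/D snoRNAs carry near their 5′ end, here bases 7 to 12.
Snord33: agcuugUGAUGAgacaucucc
UGAUGA stood in 0.69% of the 1738 mature microRNAs in the same table, read on the given strand.

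The arrays differed little in overall scale, with medians between 4.97 and 5.05 on the log2 scale. The first principal component (47.4% of the variance) separated Th3/Th3 (32.6 to 36.6) from the other genotypes (-23.8 to -9.19), and the second (16.7%) separated Th3/Th3 1 and Th3/+ 1 (25.5 and 20.5) from the rest (-14.9 to 7.71). Without these 2 arrays 9 snoRNA genes were called between Th3/Th3 and wild type, against 8 with them, and the number between Th3/Th3 and Th3/+ was 4, against 3. Over all tested probe sets the first comparison then gave 1561 higher and 991 lower, against 1297 and 884. The second gave 527 and 464, against 711 and 579. Xist, the RNA of the inactive X chromosome, was high in Th3/Th3 1 and 2, Th3/+ 2 and wild type 1, so the sexes were not balanced. Of 8 erythroblast marker genes 5 fell in Th3/Th3 cells against wild type, where 4.98% of all tested probe sets were lower. Their array medians were 9.85 to 9.95 in Th3/Th3, 10.6 to 10.7 in Th3/+ and 10.6 to 10.8 in wild type. The medians of 10 macrophage markers were 4.45 to 4.74 in Th3/Th3, 4.66 to 5.37 in Th3/+ and 4.83 to 5.23 in wild type, and 2 of the 8 that were tested fell. The medians of 6 hepatoblast markers were 6.91 to 7.67 in Th3/Th3, 7.18 to 7.96 in Th3/+ and 7.08 to 7.54 in wild type, those of 4 megakaryocyte markers 7.08 to 7.24, 7.43 to 7.71 and 7.42 to 7.7, those of 6 granulocyte markers 5.64 to 5.74, 5.26 to 5.53 and 5.37 to 5.9, and those of 3 lymphoid markers 4.21 to 4.43, 4.39 to 4.45 and 4.22 to 4.47, in the same order of genotypes. The part of these differences in the snoRNA results was not tested, and in such samples a change in the share of cells of a kind and a change in RNA per cell cannot be told apart.

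A probe set was tested when it exceeded the 40th percentile of its array on at least 3 of the 9 arrays, and was called at an adjusted p under 0.05 (limma, Benjamini-Hochberg over all 17742 such probe sets). Of the 51 snoRNA genes 40 were tested, 25 Snord and 15 Snora, and 30 of them exceeded that percentile on every array. The other 11 were not tested. Just inside the filter were Snora20 with 3 arrays and Snora75 with 4, and just outside, with 2 arrays each, were Snora74a, Snora41, Snora69, Snord73a and Snord35b. Snord53 and Snord15a exceeded it on 1 array each, and Snora16a, Snora2b, Snord37 and Snord58b on none.

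In Th3/Th3 cells, against wild type, 5 snoRNA genes rose and 3 fell, 8 of 40 tested, where 12.3% of all tested probe sets were called, 7.31% higher and 4.98% lower. The genes that rose were Snord14e, Snora20, Snord49a, Snora70 and Snord104, and those that fell were Snord8, Snord42a and Snord85. By class, 3 Snord rose and 3 fell of 25 tested (24.0%), and 2 Snora rose and 0 fell of 15 (13.3%). The difference between these shares was not tested.

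**Figure D1:**
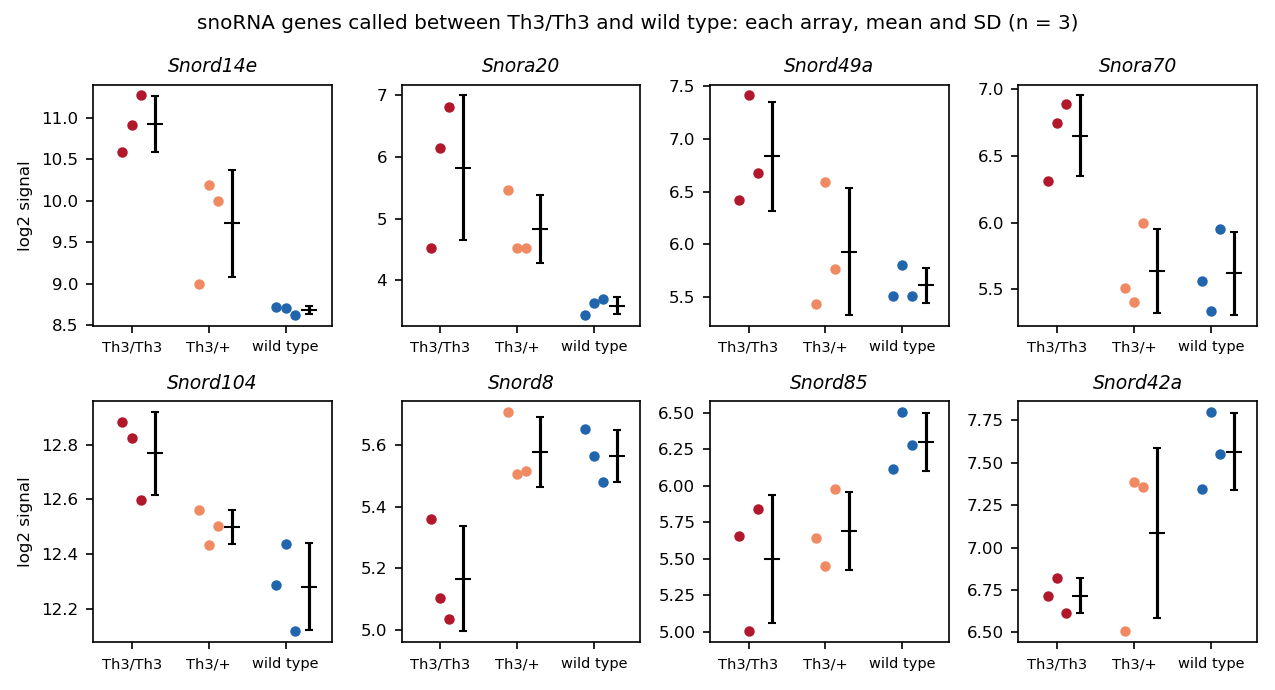
Log2 signal of the 8 snoRNA genes called between Th3/Th3 and wild type, 1 point per array, with the mean and SD of 3 arrays as bars, for Th3/Th3, Th3/+ and wild type from left to right. In each panel the Th3/Th3 arrays lie wholly above or wholly below the wild type arrays.

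Snord14e, a C/D snoRNA in an intron of the chaperone gene Hspa8 (chr9:40804748-40804838), had log2 signals of 10.59, 10.91 and 11.26 in Th3/Th3, 9.00, 10.19 and 9.997 in Th3/+, and 8.72, 8.71 and 8.63 in wild type. The 3 genotypes did not overlap, and the wild type arrays lay within 0.1 of each other while the Th3/+ arrays spread over more than 1 unit. The means were 10.92 ± 0.338 in Th3/Th3, 9.73 ± 0.639 in Th3/+ and 8.68 ± 0.0512 in wild type (SD, n = 3 each). Snord14e rose by 2.24 in Th3/Th3 (4.72-fold, SE 0.287, adjusted p = 0.00144). It also rose over Th3/+ (1.196, SE 0.287, adjusted p = 0.0369), while Th3/+ lay 1.04 above wild type without passing the test (unadjusted p = 0.00518, adjusted p = 0.902).

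Snora20, an H/ACA snoRNA in Tcp1 (chr17:12922857-12922917), which encodes a subunit of the cytosolic chaperonin, had 4.53, 6.15 and 6.80 in Th3/Th3, 5.47, 4.52 and 4.52 in Th3/+, and 3.44, 3.64 and 3.69 in wild type. All wild type arrays lay below the 40th percentile of their array (4.519 to 4.616 over the 9 arrays), and the Th3/Th3 arrays spread over more than 2 units. The measured difference was 2.24 (SE 0.494, adjusted p = 0.0176). Th3/Th3 1 also lay below its percentile (4.53 against 4.612). With wild type set at that percentile and Th3/Th3 as measured, Th3/Th3 was 2.38-fold higher. Th3/+ 2 and Th3/+ 3 lay below theirs too. By the same rule Th3/+ was 1.199-fold higher than wild type (unadjusted p = 0.032, adjusted p = 1.00 for the measured difference). As the higher group kept its low values, these folds are not strict lower limits.

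Snord49a and Snord49b are C/D snoRNAs that lie close to each other in the non-coding gene 2410006H16Rik on chromosome 11. Snord49a (chr11:62603460-62603521) had 6.42, 7.41 and 6.67 in Th3/Th3, 5.43, 6.60 and 5.77 in Th3/+, and 5.51, 5.81 and 5.52 in wild type, and rose by 1.22 in Th3/Th3 (2.33-fold, SE 0.315, adjusted p = 0.0339). Snord49b (chr11:62603086-62603148) had 10.64, 10.72 and 9.93 in Th3/Th3, 10.16, 9.00 and 9.29 in Th3/+, and 9.64, 9.70 and 8.56 in wild type. For Snord49b the Th3/Th3 and wild type arrays did not overlap, but the difference of 1.13 (SE 0.382) missed the threshold at an adjusted p of 0.0923.

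Snora70 is an H/ACA snoRNA in Rpl10, a ribosomal protein gene on the X chromosome (chrX:74272492-74272620). Its log2 signal was 6.31, 6.75 and 6.89 in Th3/Th3, 5.51, 5.41 and 6.00 in Th3/+, and 5.56, 5.34 and 5.95 in wild type. It rose by 1.03 over wild type (2.04-fold, SE 0.214, adjusted p = 0.0132) and by 1.01 over Th3/+ (adjusted p = 0.0220). Among arrays with high Xist the Th3/Th3 values were 6.31 and 6.75, against 5.56 in wild type, and among arrays with low Xist the value was 6.89 in Th3/Th3, against 5.34 and 5.95 in wild type. The part of sex in this difference was not tested.

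Snord104, a C/D snoRNA not spanned by any gene of the table longer than 1000 bases (chr11:106500991-106501063), had 12.88, 12.83 and 12.60 in Th3/Th3, 12.56, 12.44 and 12.50 in Th3/+, and 12.29, 12.44 and 12.12 in wild type. It rose by 0.49 in Th3/Th3 (1.40-fold, SE 0.0949, adjusted p = 0.00989), the smallest rise among the 5. The Th3/+ mean lay between, 0.22 above wild type (unadjusted p = 0.0459, adjusted p = 1.00).

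The 3 genes that fell are all C/D snoRNAs. Snord42a, in Rpl23a (chr11:78181302-78181346), had 6.71, 6.82 and 6.61 in Th3/Th3, 6.505, 7.39 and 7.36 in Th3/+, and 7.35, 7.80 and 7.55 in wild type, and fell by 0.85 (1.803-fold, SE 0.231, adjusted p = 0.0424). Snord42b, in the same host, differed by -0.18 (adjusted p = 0.670). Snord85 had 5.65, 5.00 and 5.84 in Th3/Th3, 5.64, 5.45 and 5.98 in Th3/+, and 6.11, 6.504 and 6.28 in wild type. Both mutant genotypes lay below every wild type array of Snord85, and it fell by 0.80 in Th3/Th3 (1.74-fold, SE 0.219, adjusted p = 0.0442) and differed by -0.61 in Th3/+ (adjusted p = 1.00). Snord8 (chr14:52209786-52209884), spanned both by Chd8, a gene for a chromatin remodeller, and by the non-coding gene Gm26590, had 5.36, 5.10 and 5.04 in Th3/Th3, 5.71, 5.51 and 5.52 in Th3/+, and 5.65, 5.56 and 5.48 in wild type. Snord8 fell by 0.40 against wild type (1.32-fold, SE 0.105, adjusted p = 0.0366) and by 0.41 against Th3/+ (adjusted p = 0.0466).

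Of these 8 calls, 6 were lost on leaving out at least 1 array. Each was recomputed under 17 alternatives, 9 of which left out 1 array, and 2 of the 8 genes, Snord14e (adjusted p from 0.000253 to 0.00839) and Snord104 (0.00493 to 0.0395), were called against wild type under every one. Snora70 was called under 15, losing its call without wild type 1 or wild type 2 (adjusted p = 0.0503 and 0.0544). Snora20 was called in 12 of the 16 alternatives that tested it, and lost its call without any 1 wild type array or without Th3/Th3 2 (adjusted p from 0.0541 to 0.0653). Snord49a was called in 10, Snord42a and Snord8 in 9 each, and Snord85 in 6, with highest adjusted p-values of 0.107, 0.142, 0.118 and 0.145, each lost on leaving out any 1 wild type array or Th3/Th3 2, among others. The differences kept their sign throughout. Snord49a, Snord8 and Snord85 also lost their calls on leaving out a Th3/+ array, with the difference from wild type unchanged (adjusted p from 0.0523 to 0.0604).

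**Figure D2:**
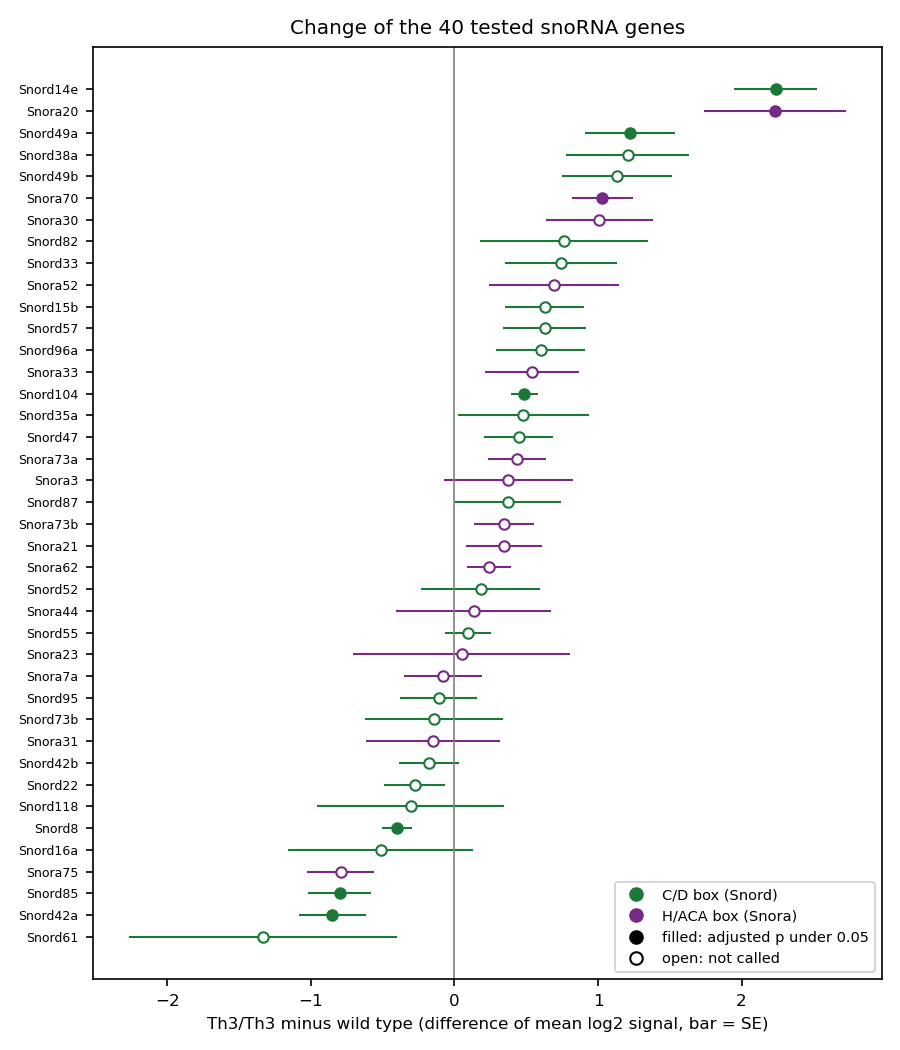
Difference of mean log2 signal, Th3/Th3 minus wild type, for the 40 tested snoRNA genes, with the standard error as a bar and colour for the class. Filled points are the 8 genes with an adjusted p under 0.05, and the values run from -1.33 to 2.24.

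Over all 51 genes, tested or not, 32 differences between Th3/Th3 and wild type were positive, 18 of 31 Snord and 14 of 20 Snora, against 14050 of all 28939 probe sets (without the control block). The median difference was 0.265 for Snord and 0.293 for Snora, beside -0.00414 for all probe sets. These medians rested on single arrays, since without Th3/Th3 3 the Snord median was 0.0836 and without Th3/Th3 2 the Snora median was 0.0752. The Th3/Th3 and wild type arrays did not overlap for 14 of the 51 genes, 10 higher and 4 lower in Th3/Th3, where 10.4% of all probe sets were higher and 9.14% lower without overlap. Besides the 8 called genes these were Snord49b, Snord96a, Snora30, Snora33 and Snora52, higher, and Snora75, lower. The Th3/Th3 values of Snora75 all lay below the 40th percentile, as did wild type 1. With Th3/Th3 set at that percentile and wild type as measured, it was 1.18-fold lower (adjusted p = 0.0575 for the measured difference).

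Among the snoRNA genes with high wild type signal, most did not pass the test. Snora33, an H/ACA snoRNA in the ribosomal protein gene Rps12, had 8.504, 9.33 and 8.54 in Th3/Th3, 7.51, 8.31 and 8.69 in Th3/+, and 8.37, 7.89 and 8.49 in wild type. Every Th3/Th3 array of Snora33 lay above every wild type array, the closest by a small margin, and the difference was 0.54 (SE 0.328, adjusted p = 0.354). Snora3, in Rpl27a, differed by 0.38 (adjusted p = 0.671), Snora31, in Tpt1, by -0.15 (adjusted p = 0.887), and Snora23, in Ipo7, by 0.05 (adjusted p = 0.980). Among the C/D snoRNAs, Snord47, in Gas5, differed by 0.45 (adjusted p = 0.293) and Snord22, in Snhg1, by -0.28 (adjusted p = 0.476).

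In Th3/+ cells, against wild type, 0 of the 40 tested snoRNA genes were called by limma (4 at an unadjusted p under 0.05), where 0.0282% of all tested probe sets (5 of 17742) were called and 3.64% had an unadjusted p under 0.05. The 4 genes were Snord14e and Snora20, higher, Snord85, lower, and Snord104, higher, all with values given above. Snora20 was below the percentile on all wild type and on 2 of 3 Th3/+ arrays, so the size of its difference is uncertain. It was 1.199-fold with wild type set at the percentile. The Th3/+ and wild type arrays did not overlap for 3 of the 51 genes, 2 higher (Snord14e and Snora20) and 1 lower (Snord85), where 3.36% of all probe sets were higher and 3.12% lower without overlap. The median difference was 0.0679 for Snord and -0.0718 for Snora, beside -0.00151 for all probe sets.

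In Th3/Th3 cells, against Th3/+, Snord14e and Snora70 rose and Snord8 fell, 3 of 40 tested genes (7.5%), where 7.27% of all tested probe sets were called, 4.01% higher and 3.26% lower. The share was close to that of all probe sets. Over the 17 alternatives Snora70 was called in 13, Snord14e in 10 and Snord8 in 7, with highest adjusted p-values of 0.0923, 0.113 and 0.135. All 3 calls were lost without Th3/Th3 2 or without Th3/Th3 3, and those of Snord14e and Snord8 also with no filter on low values (0.0593 and 0.079). The arrays of these genotypes did not overlap for 5 genes that were higher and 2 that were lower of the 51, where 8.94% and 7.3% of all probe sets did so. The median difference was 0.0752 for Snord and 0.308 for Snora, beside 0.0 for all probe sets. This comparison and the one against wild type share the Th3/Th3 arrays.

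The spread between replicate arrays was large for snoRNA genes. The median SD within genotypes was 0.464 for the 40 tested genes, against 0.157 for all tested probe sets, and 38 of the 40 lay above that value. It ran from 0.128 (Snord8) to 1.42 (Snord61). The gap was present in each band of signal: at a mean of 4 to 6 the medians were 0.589 for 19 snoRNA genes and 0.13 for all probe sets, at 6 to 8 they were 0.434 for 12 and 0.203, and at 8 and above 0.418 for 9 and 0.171. Snord61, in the X-linked gene Rbmx, had 4.14, 6.99 and 3.44 in Th3/Th3, 7.83, 5.5004 and 7.19 in Th3/+, and 7.14, 5.09 and 6.33 in wild type. Its difference of -1.33 was the lowest among the snoRNA genes, but with an SE of 0.933 the adjusted p was 0.426.

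**Figure D3:**
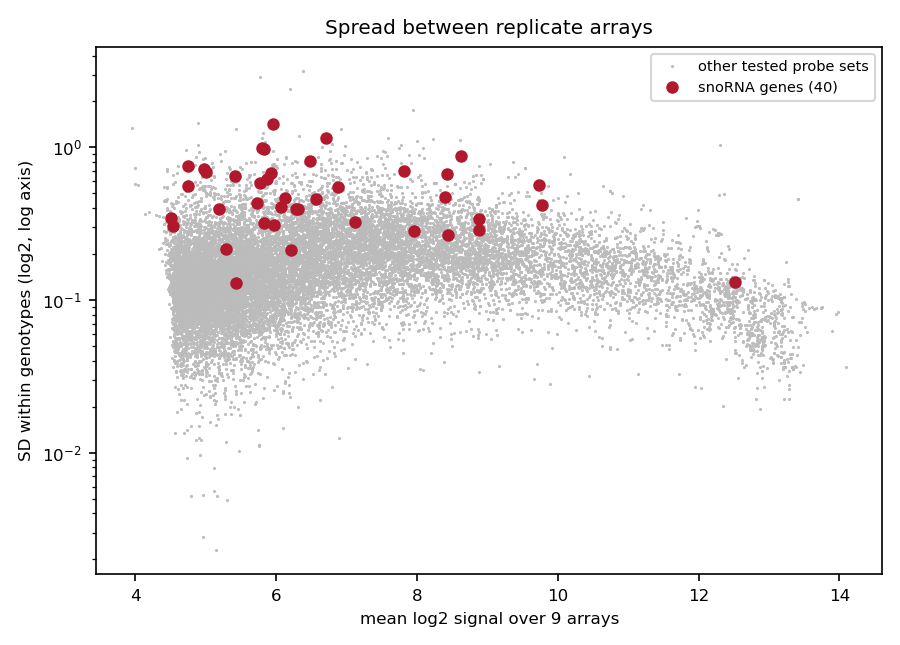
Standard deviation within genotypes (log2 units, log axis) against mean log2 signal over the 9 arrays, for all tested probe sets (grey) and the 40 tested snoRNA genes (red). Most of the snoRNA genes lie toward the upper edge of the cloud, with a median of 0.464 against 0.157, while Snord8 (0.128) and Snord104 (0.132) lie below 0.157.

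The arrays did not share 1 order over the snoRNA genes. Th3/Th3 2 held the highest value of 14 of the 51 genes and Th3/Th3 3 the lowest value of 10. For Snora, the median deviation from each gene's mean was -0.0827, 0.545 and -0.0803 in Th3/Th3, -0.204, -0.23 and 0.0499 in Th3/+, and -0.0717, -0.125 and -0.00228 in wild type. For Snord it was 0.0697, 0.163 and 0.0127 in Th3/Th3, 0.0439, -0.113 and 0.164 in Th3/+, and -0.227, -0.0344 and -0.0185 in wild type. A single Th3/Th3 array, Th3/Th3 2, thus carried the Snora median. The called Snora genes, Snora20 and Snora70, were highest in Th3/Th3 3 instead (6.80 and 6.89). The Snord values were small, positive in every Th3/Th3 array, negative in every wild type array and of mixed sign in Th3/+. This order was not tested.

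**Figure D4:**
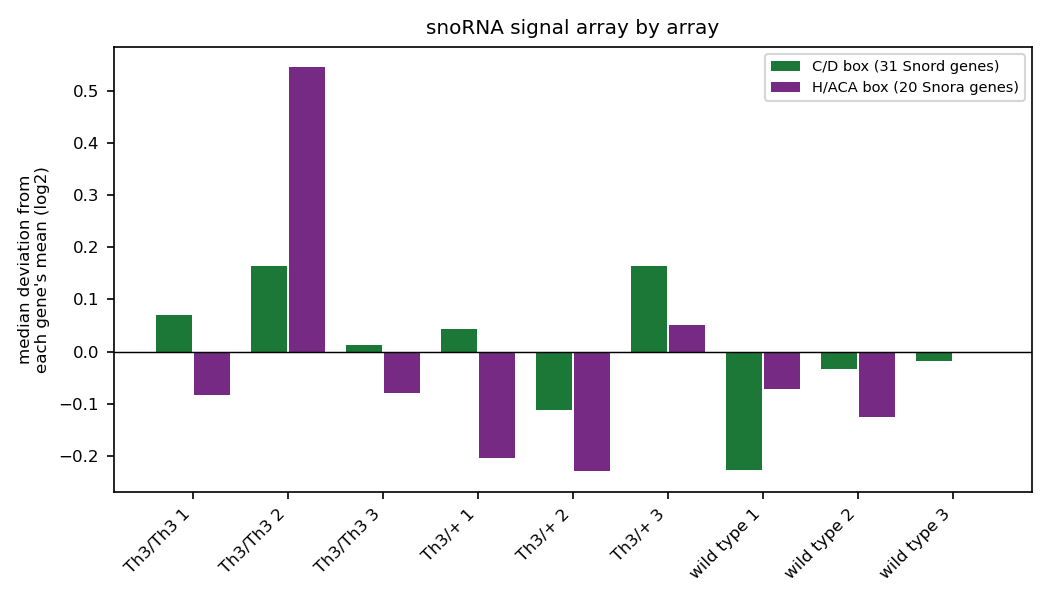
Median deviation of the 31 Snord and 20 Snora genes from each gene's mean over the 9 arrays, in log2 units, for Th3/Th3, Th3/+ and wild type arrays. Th3/Th3 2 stands out for Snora at 0.545, while the other arrays lie between -0.23 and 0.164.

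Host genes were compared with the snoRNA genes they hold. Of the 40 hosts, 24 had a probe set of their own, and 22 pairs, with 20 hosts, were tested on both sides. Of these 20 hosts 4 rose in Th3/Th3, against wild type, and 1 fell, where 7.31% of all tested probe sets were higher and 4.98% lower. Hspa8, the constitutive HSP70 chaperone, had 13.29, 13.19 and 13.34 in Th3/Th3, 12.43, 12.66 and 12.66 in Th3/+, and 11.72, 11.68 and 11.84 in wild type. The 3 genotypes did not overlap, and Hspa8 rose by 1.53 in Th3/Th3 (SE 0.0751, adjusted p = 2.08e-05) and by 0.83 in Th3/+ (adjusted p = 0.00482). Tcp1 had 11.07, 11.01 and 11.27 in Th3/Th3, 10.61, 10.74 and 10.81 in Th3/+, and 10.32, 10.35 and 10.51 in wild type, and rose by 0.72 in Th3/Th3 (SE 0.102, adjusted p = 0.00223). Hspa8 and Tcp1 are the hosts of Snord14e and Snora20, the pair of snoRNA genes with the largest rises. The other hosts that changed were Gas5, a non-coding host (0.28, adjusted p = 0.00737), Rpl4 (0.23, adjusted p = 0.0438) and Rbmx (-0.51, adjusted p = 0.0442), whose own snoRNA genes Snord47, Snord16a and Snord61 were not called (differences of 0.45, -0.51 and -1.33).

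For Snora70 and Snord42a the host was measured and not called, and for Snord8 1 of the 2 genes that span it was. Rpl10 differed by 0.12 (adjusted p = 0.363), Rpl23a by 0.04 (adjusted p = 0.614) and Chd8 by -0.08 (adjusted p = 0.856). Gm26590 and 2410006H16Rik had no probe set of their own. Over the 22 pairs the snoRNA gene and its host had the same sign in 15, and the snoRNA gene had the larger absolute difference in 21, with median absolute differences of 0.584 for snoRNA genes and 0.153 for hosts. Between Th3/+ and wild type, where 0 snoRNA genes were called, the snoRNA gene had the larger absolute difference in 17 of the 22. Replicate spread was larger for snoRNA genes (median SD 0.464, against 0.157 for all tested probe sets), and its part in these differences was not tested. Snora20 and Snora75 enter these figures at their measured values, not at their bounds. Across these pairs, which share arrays and in part hosts, Pearson's r was 0.635 and Spearman's rho 0.363, and without the pairs of Hspa8 and Tcp1 r was 0.192 and rho 0.151 over 20 pairs. The array cannot tell a processed snoRNA from the same bases in an unspliced host transcript.

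**Figure D5:**
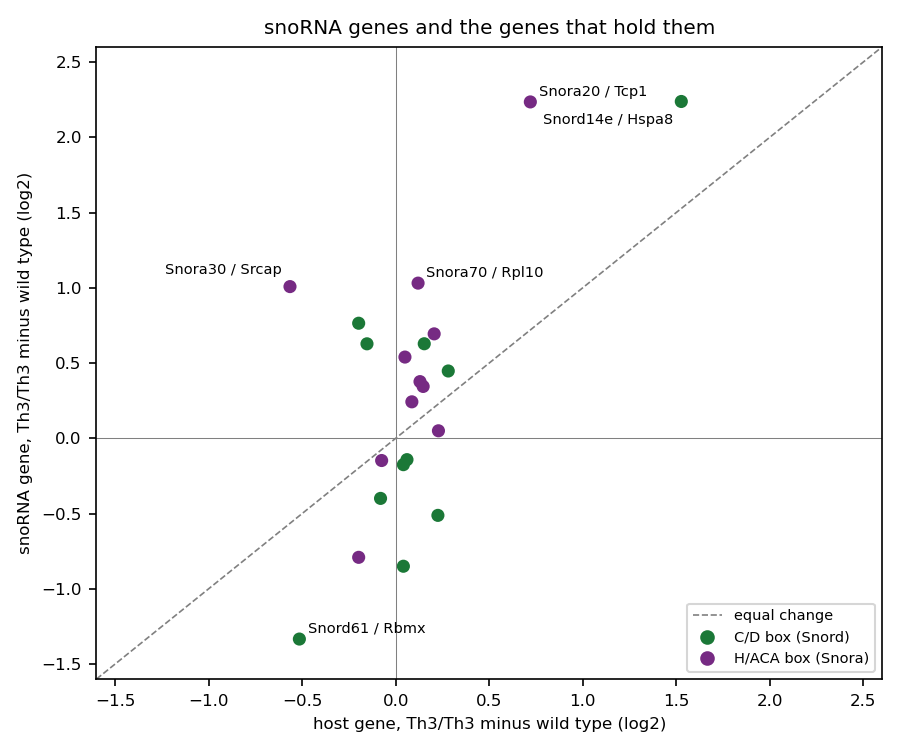
Difference of mean log2 signal, Th3/Th3 minus wild type, of each snoRNA gene (vertical) against that of the gene that holds it (horizontal) for the 22 pairs tested on both sides, with a dashed line of equal change. Snord14e with Hspa8 and Snora20 with Tcp1 lie at the upper right, and most other hosts lie close to 0.

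Several hosts hold more than 1 snoRNA gene, and differences within a host were not tested. In Rack1, Snord96a differed by 0.60 (adjusted p = 0.27) and Snord95 by -0.11 (adjusted p = 0.851). In Rpl13a, Snord33 differed by 0.74 and Snord35a by 0.48 (adjusted p = 0.276 and 0.576). In Ncl, the gene of nucleolin, Snord82 differed by 0.76 (adjusted p = 0.473), and Snora75 is described above. In Snhg3, the H/ACA snoRNAs Snora73a and Snora73b, which act in ribosomal RNA processing, differed by 0.44 and 0.34 (adjusted p = 0.21 and 0.357). Snord118 (U8), a C/D snoRNA with a promoter of its own that acts in ribosomal RNA cleavage, differed by -0.30 (adjusted p = 0.827), and Rnu3a, the U3 RNA, which is a C/D snoRNA outside the name rule, by 1.30 (adjusted p = 0.326). The adult beta-globin genes lie on chromosome 7, and 4 of the 51 genes (Snora3, Snora23, Snord15a and Snord15b) lay within 10 Mb of them. Snord15a was not tested and the other 3 were not called, where 12.3% of all tested probe sets were, so the number is too small to set against that share.

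Probe sets listed for several genes were outside the rule. There were 41 of them with at least 1 snoRNA symbol, 11 were tested, and 24 were listed for Snord116 copies, of which 0 were tested. The 2 listed for Snord14d, Snord14c and Hspa8 rose by 2.71 and 2.75 in Th3/Th3 (adjusted p = 0.00203 and 0.0025), and the 1 listed for Snora28 and Eif5 fell by 1.77 (adjusted p = 0.0112). Their signal cannot be split between the listed genes.

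The proteins that bind snoRNAs were given by fixed lists. Of the 5 C/D box proteins measured (Fbl, Nop56, Nop58, Snu13 and Rrp9) 0 were called in Th3/Th3, against wild type, by limma, with differences of -0.154 to 0.30. Of the 4 H/ACA box proteins 1 rose and 1 fell. Among all tested probe sets 7.31% were higher and 4.98% lower, and both lists are too small to set against these shares. Nop10 had 11.19, 10.89 and 10.99 in Th3/Th3, 10.31, 10.33 and 10.54 in Th3/+, and 10.17, 10.44 and 9.99 in wild type, and rose by 0.82 (SE 0.137, adjusted p = 0.00486). Dkc1, the X-linked gene of the pseudouridine synthase dyskerin, had 6.80, 7.38 and 7.38 in Th3/Th3, 7.76, 7.81 and 8.09 in Th3/+, and 7.75, 7.95 and 8.12 in wild type, and fell by 0.76 (SE 0.187, adjusted p = 0.0282). Nhp2 and Gar1 differed by 0.67 and 0.03 (adjusted p = 0.164 and 0.935). Nop10 and Dkc1, which belong to the same particle, thus changed in opposite directions.

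Assembly factors rose in part. Of 10 tested, 4 rose and 0 fell, where 7.31% of all tested probe sets were higher and 4.98% lower: Znhit3 (1.07, adjusted p = 0.00173) and Nufip1 (0.66, adjusted p = 0.0307), which take part in loading the C/D proteins, and Ruvbl1 (0.93, adjusted p = 0.00422) and Ruvbl2 (0.48, adjusted p = 0.0324), ATPases of the R2TP chaperone complex that also serve other particles. The median over the list was 0.399. Of 15 exonuclease and trimming genes, Exosc1 (0.78, adjusted p = 0.00697) and Exosc10 (0.53, adjusted p = 0.0492), subunits of the RNA exosome, rose and 0 fell, with a median of 0.21. That number, 2 of 15, is close to the 12.3% called among all tested probe sets. Of 5 tested non-coding host genes 1, Gas5, rose, where 7.31% of all tested probe sets were higher, with a median of 0.281. The 3 Cajal body RNAs tested, which guide modification of spliceosomal RNAs, gave 0 calls, as did 2 U RNAs. These numbers are too small to set against the 12.3% of all tested probe sets. In Th3/+, against wild type, 0 genes of any of these lists were called, where 0.0282% of all tested probe sets were.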

How the data were processed

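Per the labels' protocols, RNA (35 ng per sample) from sorted erythroblasts was amplified, labelled with biotin and hybridised. The deposited log2 values, 1 per probe set and array, were made by the authors, and MAS5 is named in the submitters' processing notes; their summary and background steps were not stated. They were used as deposited. Of 35556 probe sets, 6617 in an inferred control block were left out. Those exceeding their array's 40th percentile on 3 or more of 9 arrays were kept (17742) and fitted in limma 3.58.1 (R 4.3.3; lmFit with 1 mean per genotype, eBayes with a trend), two-sided, with Benjamini-Hochberg adjustment over all kept. An exact permutation of 3 against 3 arrays cannot go below p = 0.1. The fit was also run on simulated data with independent noise for each probe set and array, and no result here rests on that run. Members, lists and alternatives were chosen with earlier results of these data known. Genes named were those past the test, the hosts, fixed lists and other members picked by rule; some uncalled members and probe sets of several symbols were picked after their values were seen. The replicate numbers were not taken to pair samples, and whether they do was not tested. Some host genes are not reported here. The number of arrays limits the precision.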

Additional observations from a re-analysis of the deposited data

How the results depend on the processing

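With no filter on low values, 4 snoRNA genes were called between Th3/Th3 and wild type, all higher (8 with the filter), and 1 between Th3/Th3 and Th3/+ (3 with it). Over all probe sets the calls against wild type went from 1297 higher and 884 lower to 1058 and 726. Those against Th3/+ went from 711 and 579 to 541 and 465. With the stricter filter, at the 60th percentile, the median between Th3/+ and wild type was 0.209 over the Snord genes that passed it. The reported 0.0679 is over all 31 Snord genes, so these medians cover different sets of genes. Leaving out each array in turn gave 3 to 7 calls between Th3/Th3 and wild type, 0 to 4 between Th3/Th3 and Th3/+, and 0 between Th3/+ and wild type. Over the same fits the Snord medians ran from 0.0836 to 0.265 for Th3/Th3 over wild type, 0.0546 to 0.178 for Th3/+ over wild type and -0.0579 to 0.249 for Th3/Th3 over Th3/+, and in the same order the Snora medians from 0.0752 to 0.442, -0.163 to 0.0646 and 0.177 to 0.330. The calls between Th3/Th3 and wild type fell to 3 without wild type 1, wild type 2, wild type 3 or Th3/Th3 2, and those between Th3/Th3 and Th3/+ to 0 without Th3/Th3 2 or Th3/Th3 3. Calls over all probe sets fell in these fits too. In that order they were 832 higher and 661 lower, 854 and 590, 925 and 551, and 933 and 678 against wild type. Against Th3/+ they were 439 and 426, and 525 and 502. The cause was not tested. Fitted with the replicate number as a block, 9, 0 and 4 genes were called for Th3/Th3 over wild type, Th3/+ over wild type and Th3/Th3 over Th3/+. Snord49b was then called in Th3/Th3 against wild type (adjusted p = 0.0319). Over all probe sets the block fit called 1445 higher and 1025 lower in Th3/Th3 against wild type, and 836 and 677 against Th3/+. In their deviations from the genotype means, same-numbered arrays correlated between -0.125 and 0.355, with 8 of 9 pairs above 0 and 6 over 0.1, while 12 of 18 pairs of different number lay below 0. The second principal component fell from replicate 1 to 2 to 3 in each genotype. It was 25.5, -8.9 and -14.9 in Th3/Th3, 20.5, -10.1 and -13.0 in Th3/+, and 7.71, 5.16 and -12.0 in wild type. Whether the numbers mark pairs or batches was not tested, and the sample titles do not say. Of 72 counts and medians from the 8 other alternatives, 69 stayed within 1.5 times the reported count or within the replicate SD of the reported median. The medians could not move with no filter, without the trend or with the block, since these settings do not enter them. Those medians therefore say nothing about stability. Of the 32 tested but uncalled snoRNA genes, 6 were called between Th3/Th3 and wild type in at least 1 alternative.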
